A study of Mus musculus with 8 samples.

Results

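The genes described here are 40 type I and type II interferon response genes of the mouse, taken by symbol from a fixed list. Of these 40, 39 had a row among the 24848 genes of the deposited tables, and Rnf213 was not analysed here. Their RNA was measured in ischemic tibialis anterior muscle, a muscle of the lower leg, from 4 libraries of mice fed praliciguat and 4 libraries of mice fed a placebo diet. Praliciguat stimulates soluble guanylate cyclase, the receptor for nitric oxide that makes cGMP. All mice of both groups were male Leprdb/db animals, which lack a working leptin receptor and become obese and diabetic, and all had hind limb ischemia (HLI) surgery, with muscle collected 28 days later. The praliciguat chow held 75 ppm of the drug, meant to give the peak plasma level that 10 mg/kg/day by mouth would reach, and the placebo chow held none; both were fed for 31 days from day -3. No library came from a leptin receptor-competent mouse or a limb without surgery, so every level below belongs to this injured, diabetic background. Whether each library is its own animal is not stated, so every p-value speaks only of variation among these 8 libraries.

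Interferons are secreted proteins that warn cells of viruses and other intracellular microbes. Type I interferons signal through the kinases Jak1 and Tyk2 to a complex that includes Stat2 and Irf9 and binds the interferon-stimulated response element (ISRE). Type II interferon, made mainly by T and natural killer cells, signals through Jak1 and Jak2 to genes that carry the gamma-activated site (GAS). Many response genes can be turned on by either signal, and in injured muscle both invading leukocytes and resident cells can express them.

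Promoter letters are shown first because the members carry these elements at different places. RefSeq promoter windows on GRCm38.p6, running from 250 bases before a start site to 50 bases after it, were found for 31 of the 40 genes, the others being Zbp1, Nlrc5, Oas2, Mx1, Mx2, Usp18, Parp9, Parp14 and Iigp1. The letters GAAANNGAAA, an ISRE core searched on both strands, were present in the windows of 18 of these 31 genes and in 3.44% of all 32851 windows. The letters TTCNNNGAA, a GAS core that reads the same on both strands, were present in 10 of the 31 genes and in 8.30% of all windows. The 31 genes have 35 windows and count if any of their windows matches, so their shares and those of all windows are in unlike units. Matches of the same motif may overlap each other, and a GAS match may overlap an ISRE match. Among the interferon-inducible GTPases, 7 of the 8 genes with a window held the ISRE core and 4 held the GAS core. Among the transcription factors, 1 of 4 held the ISRE core. A match is a description of letters, not a shown binding site.

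The following stretches carry the matches in capitals, read along each gene from 5′ to 3′. They are shown because the first 3 share an order and spacing of elements. In Igtp (chr11:58199499-58199543, + strand), Irgm2 (chr11:58214890-58214934, + strand) and Tgtp1 (chr11:48992302-48992346, - strand) a GAS core is followed after 2 bases by an ISRE core.
Igtp: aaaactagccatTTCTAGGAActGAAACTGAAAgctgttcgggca
Irgm2: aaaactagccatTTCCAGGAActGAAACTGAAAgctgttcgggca
Tgtp1: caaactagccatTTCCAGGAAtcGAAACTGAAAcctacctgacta
The joined letters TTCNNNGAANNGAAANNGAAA were present in 5 of all 32851 windows (0.0152%), those of Igtp, Irgm2, Tgtp1, Tgtp2 and Gm12185. Igtp, Irgm2, Tgtp1 and Tgtp2 belong to 1 gene family, so the shared order is not independent in each. The joined pattern is 21 letters long and only this spacing was searched, so nothing is read from its low share. The other members that held both cores, at another spacing or overlapping, were Oas1a, Ifitm3, Gbp7 and Bst2. In Ifitm3 the matches lay after the start site. Gbp7 (chr3:142530218-142530304, + strand) and Bst2 (chr8:71537575-71537620, - strand) are printed here.
Gbp7: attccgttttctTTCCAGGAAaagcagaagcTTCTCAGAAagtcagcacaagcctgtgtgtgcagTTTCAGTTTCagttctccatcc
Bst2: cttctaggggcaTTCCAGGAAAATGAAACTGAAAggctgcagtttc
Gbp2 (chr3:142620592-142620625, + strand), Irgm1 (chr11:48871423-48871462, - strand), Isg15 (chr4:156200863-156200908, - strand) and Ifit1 (chr19:34640773-34640825, + strand) held the ISRE core alone, repeated in the last 3.
Gbp2: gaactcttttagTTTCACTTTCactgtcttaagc
Irgm1: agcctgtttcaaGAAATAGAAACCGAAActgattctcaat
Isg15: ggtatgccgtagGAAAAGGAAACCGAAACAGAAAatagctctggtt
Ifit1: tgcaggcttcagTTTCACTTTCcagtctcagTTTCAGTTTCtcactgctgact

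**Figure D1:**
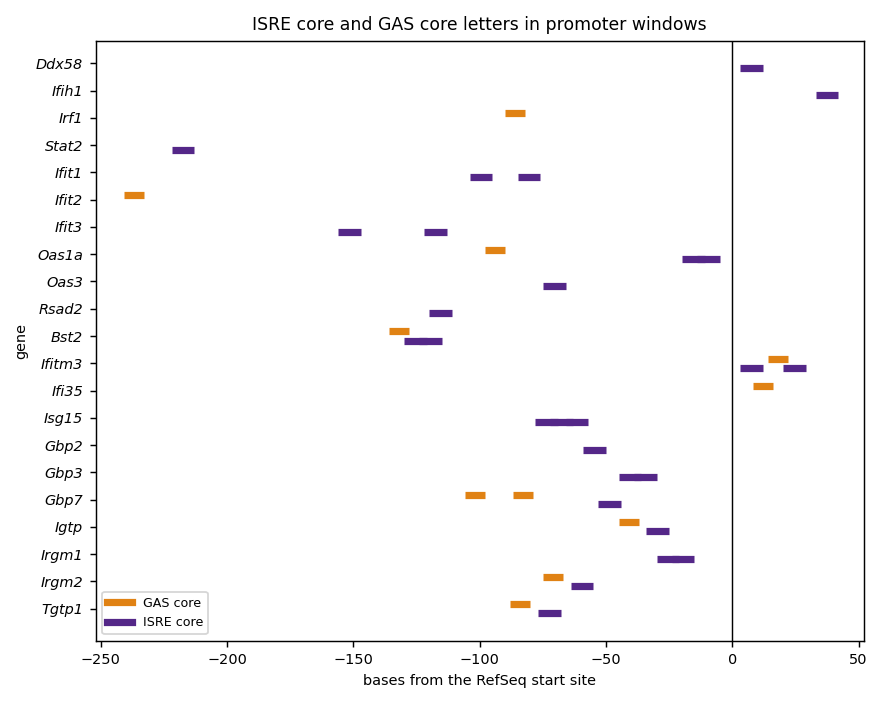
Position of each GAS core (orange) and ISRE core (purple) match in the promoter windows of the interferon response genes that held one; the horizontal axis is the distance in bases from the RefSeq start site (vertical line). In Igtp, Irgm2 and Tgtp1 the orange mark lies just upstream of the purple one, within 100 bases of the start.

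Total expected counts, the estimated read counts per gene added over all genes, ranged from 27271020 to 31896205 in praliciguat and from 21099764 to 29635817 in placebo libraries. The summed level of 6 skeletal muscle genes was 123256 to 162937 CPM (counts scaled to a common library size) in praliciguat and 113726 to 146226 CPM in placebo libraries, so muscle markers were abundant in every library. One library stood apart: praliciguat replicate 3 held the highest value of 13 of 14 macrophage and monocyte markers, whose summed level was 881 CPM there against 92.2 to 202 CPM in the other praliciguat libraries and 119 to 309 CPM in placebo libraries. Summed fibroblast markers were 4765 CPM in that library, against 649 to 1592 CPM in the other praliciguat libraries and 1137 to 2252 CPM in placebo. Praliciguat replicate 3 also held the highest value of 22.2% of all genes tested. In bulk muscle, more cells of a type and more RNA per cell cannot be told apart.

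Over the whole comparison no interferon response gene passed the test. Of the 39 genes with a row, 37 passed the filter on low counts; Mx1 and Oas3 did not. By edgeR's quasi-likelihood test 0 of the 37 were called at an adjusted p under 0.05, as were 0 of all 13569 genes tested (0.00%), and adjusted p ranged from 0.762 to 0.999 over the members. At an unadjusted p under 0.05 there was 1 member, Irgm1 (2.70% of 37), in the higher direction, and 0 in the lower direction, against 5.73% of all genes tested (1.95% higher and 3.78% lower). DESeq2 called 0 members, with a smallest adjusted p of 0.590, while it called 0.902% of the genes it adjusted (0.0931% higher and 0.809% lower). At an unadjusted p under 0.05 DESeq2 had 4 members higher and 0 lower, against 1.95% higher and 3.23% lower (5.18% in all) of its genes. In 0 of the 37 members did the groups stand without overlap, against 3.86% of all genes tested (1.32% higher and 2.54% lower). The log2 fold change of praliciguat against placebo was above 0 in 29 of the 37 and in 55.2% of all genes tested, with a median of 0.22 over the members and 0.02 over all genes. The median depended on single libraries. It was -0.02 without praliciguat replicate 3, with 18 of 37 above 0. It was 0.14 without praliciguat replicate 1 and 0.09 without placebo replicate 4. Without praliciguat replicate 2 it rose to 0.33, with 34 of 37 above 0. Without praliciguat replicate 4 it rose to 0.27, with 33 of 37 above 0. Without praliciguat replicates 1 and 3, a pair picked after the values were seen, the median was -0.15, with 12 of 37 above 0. These libraries held the highest values of 9 and 23 of the 37 members, so a lower median was built into that choice.

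**Figure D2:**
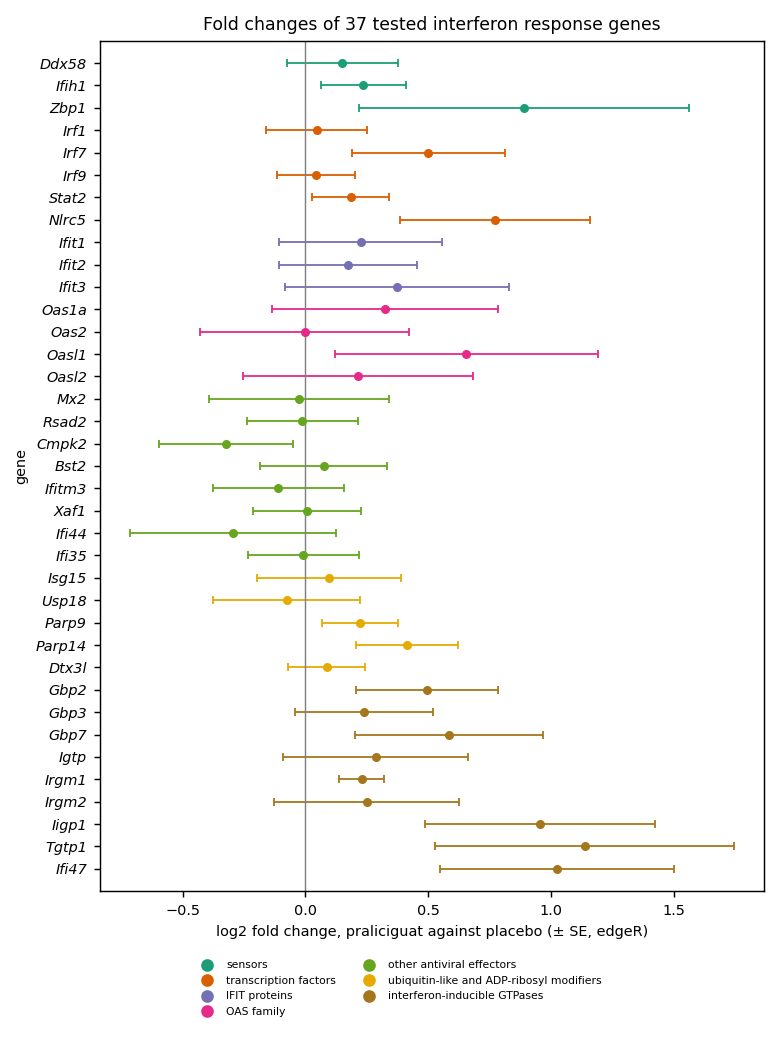
Log2 fold change of praliciguat against placebo for the 37 tested members (points, coloured by role; bars are ± SE from edgeR, 4 libraries per group), with 0 marked by the vertical line. Points right of the line number 29, and Tgtp1, Ifi47 and Iigp1 among the GTPases lie farthest right, with wide bars.

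The GTPases and the other members were mostly highest in different libraries. Of the 28 tested members other than the GTPases, 23 had their highest CPM in praliciguat replicate 3, and 18 had their lowest in placebo replicate 4. Of the 9 GTPases, 8 had their highest CPM in praliciguat replicate 1, and the other, Irgm2, in placebo replicate 3. For comparison, praliciguat replicate 3 was highest in 22.2%, praliciguat replicate 1 in 14.6% and placebo replicate 4 lowest in 10.7% of all genes tested. Different praliciguat libraries thus held the highest values of different members. Without praliciguat replicate 3 the members other than GTPases had a median log2 fold change of -0.09, with 9 of 28 above 0, against 0.12 and 20 of 28 with all libraries. Without praliciguat replicate 2 that median was 0.25, with 25 of 28 above 0. The median over GTPases of log2 CPM, taken from each gene's mean over the 8 libraries, was 0.99, -0.41, 0.43 and -0.32 in praliciguat replicates 1 to 4, against -0.61, 0.08, 0.02 and -0.55 in placebo replicates 1 to 4. Over the 28 other members it was 0.01, -0.28, 0.55 and -0.06 in praliciguat and -0.03, 0.20, 0.15 and -0.56 in placebo libraries.

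**Figure D3:**
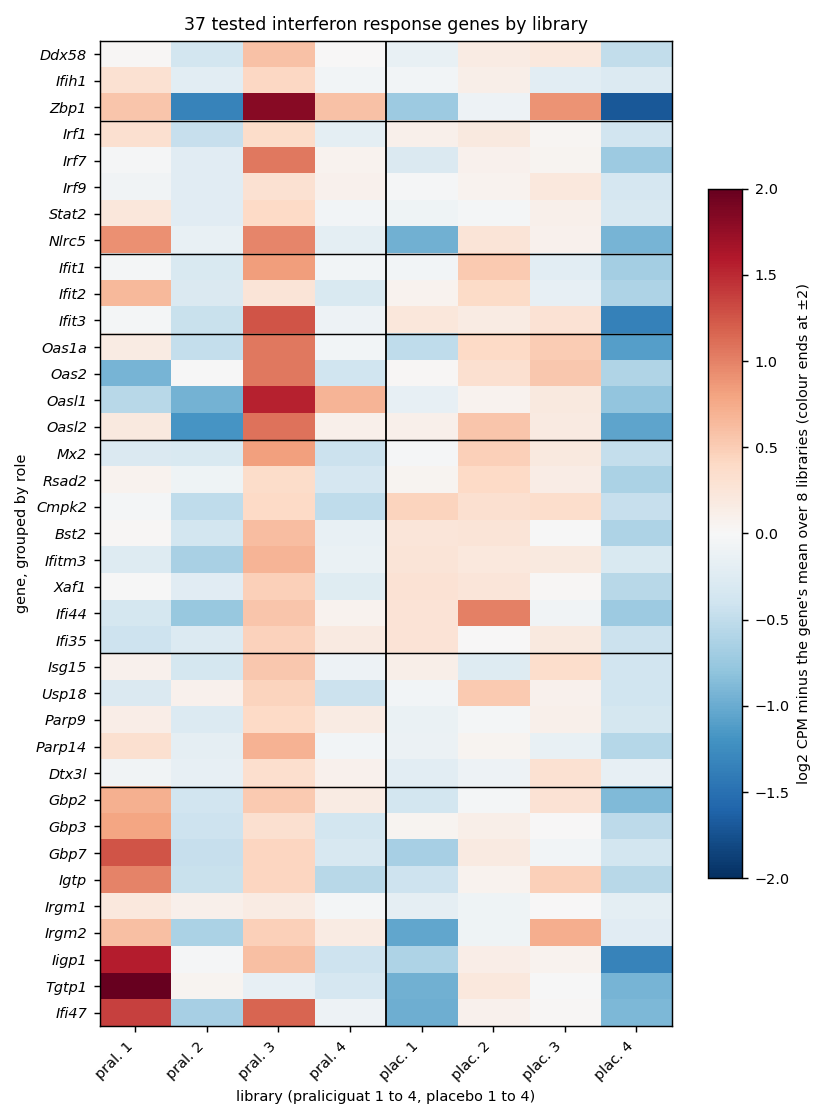
Log2 CPM of the 37 tested members minus each gene's mean over the 8 libraries (red above, blue below, colours ending at ±2), in praliciguat replicates 1 to 4 and placebo replicates 1 to 4; black lines part the groups and the roles (from the top: sensors, transcription factors, IFIT, OAS, other antiviral effectors, modifiers, GTPases). Praliciguat replicate 3 is red in nearly all rows of the upper roles, praliciguat replicate 1 is the reddest in the GTPase rows except Irgm2, and placebo replicate 4 is blue throughout.

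The spread within groups was wide. The median SD of log2 CPM over the 37 members was 0.49 in praliciguat and 0.39 in placebo libraries, against 0.24 and 0.20 over all genes tested. The SD was larger in praliciguat for 28 of the 37 members and for 65.0% of all genes tested. Between the lowest and the highest library, the 37 tested members differed by 1.33-fold in Irgm1 to 11.4-fold in Zbp1, with a median of 2.49-fold. Numbers in the sample titles fall in a low and a high stretch, each with 2 praliciguat and 2 placebo libraries, and their meaning is not given. Within the lower stretch of numbers 16 of 37 members were higher in praliciguat (median difference in log2 CPM -0.06). Within the upper stretch, which holds praliciguat replicate 3 and placebo replicate 4, 35 of 37 were higher (median 0.39), against 48.7% and 51.6% of all genes tested.

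The interferon-inducible GTPases, which attack or regulate the vacuoles that enclose intracellular microbes, had a median log2 fold change of 0.49, and 9 of 9 were above 0 with 0 called. Without praliciguat replicate 1 that median was 0.18 with 7 of 9 above 0, and without placebo replicate 4 it was 0.32. It was 0.67 without praliciguat replicate 2 and 0.63 without placebo replicate 3, with 9 of 9 above 0 in each. Without praliciguat replicates 1 and 3, a pair picked after the values were seen, it was 0.00 with 5 of 9 above 0. Irgm1, a regulatory member of the immunity-related GTPases (chromosome 11, 48865245 to 48871420 on GRCm38), had 24.4, 22.6, 23.6 and 20.5 CPM in praliciguat libraries, against 18.5, 19.8, 21.1 and 18.4 CPM in placebo libraries. Only placebo replicate 3 reached into the praliciguat range. Its log2 fold change was 0.23 ± 0.09 (SE; edgeR unadjusted p = 0.0312, adjusted p = 0.762), and it stayed between 0.19 and 0.28 when any single library was left out.

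Iigp1, a GTPase that coats and breaks the vacuole of parasites, had 39.2, 12.98, 20.0 and 9.94 CPM in praliciguat libraries, against 8.64, 14.5, 13.9 and 5.22 CPM in placebo libraries. Praliciguat replicate 1 lay above all others, replicate 3 came next, and replicates 2 and 4 lay inside the placebo range. The log2 fold change was 0.96 ± 0.47 (SE; edgeR adjusted p = 0.928), and 0.44 without praliciguat replicate 1. Ifi47, another immunity-related GTPase, had 7.49, 1.83, 6.50 and 2.70 CPM in praliciguat libraries, against 1.47, 3.08, 2.95 and 1.56 CPM in placebo libraries. Here praliciguat replicates 1 and 3 were both high (log2 fold change 1.03 ± 0.48 SE; edgeR adjusted p = 0.899). Tgtp1, an effector GTPase of the same family that was picked out after its values were seen, had 5.73, 1.36, 1.17 and 1.03 CPM in praliciguat libraries, against 0.668, 1.51, 1.30 and 0.689 CPM in placebo libraries. Its log2 fold change of 1.14 ± 0.61 (SE; edgeR adjusted p = 0.956) was 0.18 without praliciguat replicate 1. Tgtp1 has a near-identical copy, Tgtp2, which had 2.98 CPM in praliciguat replicate 1 and at most 1.16 CPM in any other library, and the counts of both are uncertain.

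Igtp, a regulatory immunity-related GTPase whose promoter shares the joined GAS and ISRE letters printed above, had 20.5, 7.54, 13.9 and 6.99 CPM in praliciguat libraries, against 7.75, 10.9, 14.4 and 7.04 CPM in placebo libraries. Irgm2, the other regulatory member with those letters, was highest in placebo replicate 3, at 22.5 CPM, and lowest in placebo replicate 1, at 6.68 CPM; its praliciguat libraries ranged from 8.82 to 20.9 CPM. For Igtp 3 of the praliciguat libraries, and for Irgm2 all 4, had a placebo library above them. Gbp2, a guanylate-binding protein, had 14.8, 6.92, 12.9 and 10.2 CPM in praliciguat libraries, against 6.99, 8.77, 11.1 and 4.93 CPM in placebo libraries (log2 fold change 0.49 ± 0.29 SE, and 0.32 without placebo replicate 4; edgeR adjusted p = 0.974). Its relatives Gbp3 and Gbp7 had log2 fold changes of 0.24 ± 0.28 and 0.59 ± 0.38 (SE), with praliciguat replicate 1 highest in each. Without that library they were -0.04 for Gbp3 and 0.13 for Gbp7. In praliciguat replicate 1 the summed macrophage markers were 154 CPM, inside the placebo range, and the summed T and natural killer cell markers were 1.10 CPM, against 0.834 to 4.80 CPM in placebo libraries.

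**Figure D4:**
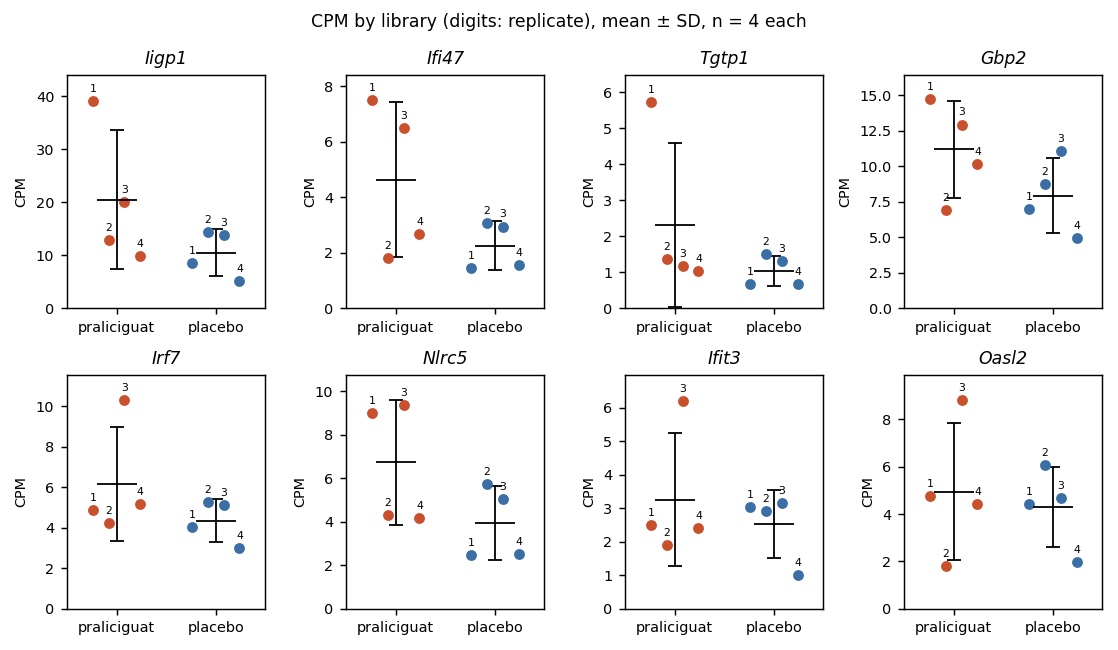
CPM of 8 members, picked after their values were seen, in each library (digits give the replicate; bars show the mean ± SD, n = 4 per group). For Iigp1 and Tgtp1 praliciguat replicate 1 stands above the rest, for Irf7, Ifit3 and Oasl2 praliciguat replicate 3 does, and for Ifi47, Nlrc5 and Gbp2 both do.

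The transcription factors had 5 of 5 fold changes above 0 and 0 called. Nlrc5, the activator of MHC class I genes, had 9.02, 4.31, 9.39 and 4.19 CPM in praliciguat libraries, against 2.45, 5.72, 5.04 and 2.503 CPM in placebo libraries (log2 fold change 0.77 ± 0.39 SE; edgeR adjusted p = 0.932). Praliciguat replicates 1 and 3 were about equal and above every placebo library, and replicates 2 and 4 were inside the placebo range. The difference was 0.72 within the lower stretch and 0.81 within the upper stretch. Irf7, which amplifies type I interferon production, had 4.86, 4.24, 10.3 and 5.18 CPM in praliciguat libraries, against 4.05, 5.28, 5.11 and 2.97 CPM in placebo libraries. Its log2 fold change was 0.50 ± 0.31 (SE; edgeR adjusted p = 0.984), and 0.13 without praliciguat replicate 3, the lone high library.

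Stat2, a DNA-binding part of the type I signal, had 15.6, 11.3, 17.5 and 12.8 CPM in praliciguat libraries, against 12.6, 12.9, 14.3 and 10.6 CPM in placebo libraries. Irf9, its partner in the ISRE-binding complex, had 8.59, 7.74, 11.1 and 9.62 CPM in praliciguat and 8.91, 9.52, 10.4 and 7.15 CPM in placebo libraries. Irf1, a factor induced by type II interferon, had 15.7, 9.17, 16.3 and 10.97 CPM in praliciguat and 13.5, 14.4, 13.003 and 9.69 CPM in placebo libraries. Their log2 fold changes were 0.18 ± 0.16, 0.04 ± 0.16 and 0.05 ± 0.21 (SE), with overlapping groups in each. Without praliciguat replicate 3 they were 0.07 for Stat2, -0.06 for Irf9 and -0.08 for Irf1. The values of Irf1 and Irf9 lay slightly below 0 on the log2(TPM + 1) scale, where TPM is a unit scaled for gene length (-0.02 and -0.0030).

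The cytosolic sensors were each highest in praliciguat replicate 3 and lowest in placebo replicate 4. Ddx58, which encodes the RNA sensor RIG-I, had 9.53, 7.23, 14.1 and 9.44 CPM in praliciguat and 8.42, 10.4, 10.8 and 6.68 CPM in placebo libraries. Ifih1, the long RNA sensor MDA5, had 7.85, 5.52, 8.45 and 6.10 CPM in praliciguat and 6.10, 6.89, 5.49 and 5.26 CPM in placebo libraries. Zbp1, a sensor of Z-form nucleic acids that can trigger necroptosis, had 0.863, 0.233, 2.07 and 0.887 CPM in praliciguat and 0.356, 0.548, 1.10 and 0.181 CPM in placebo libraries. Zbp1 had a log2 fold change of 0.89 ± 0.67, the largest SE among the members, and Ddx58 and Ifih1 had 0.15 ± 0.22 and 0.24 ± 0.17 (SE). Without praliciguat replicate 3 these were 0.27 for Zbp1, -0.05 for Ddx58 and 0.13 for Ifih1.

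Ifit3, one of the IFIT proteins that bind foreign RNA and restrain its translation, had 2.51, 1.90, 6.21 and 2.41 CPM in praliciguat and 3.03, 2.91, 3.16 and 1.02 CPM in placebo libraries. The sign turned on praliciguat replicate 3: the log2 fold change was 0.37 ± 0.46 (SE) with all libraries and -0.15 without that library. Ifit1 had 2.47, 2.06, 4.58 and 2.45 CPM in praliciguat and 2.45, 3.67, 2.20 and 1.596 CPM in placebo libraries. Ifit2 differed from them in being highest in praliciguat replicate 1, with 6.63, 3.46, 5.04 and 3.41 CPM in praliciguat and 4.41, 5.48, 3.77 and 2.76 CPM in placebo libraries. In RefSeq coordinates Ifit1 overlaps its relative Ifit1bl1, so its count is uncertain.

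Genes of the OAS family, whose enzymes make oligoadenylates that activate RNase L, had their highest value in praliciguat replicate 3 in 4 of 4 tested members. Oasl1 and Oasl2 are OAS-like proteins with ubiquitin-like domains. Oasl1 had 0.510, 0.389, 2.19 and 1.21 CPM in praliciguat and 0.668, 0.788, 0.858 and 0.435 CPM in placebo libraries (log2 fold change 0.65 ± 0.54 SE, and 0.038 without praliciguat replicate 3). Oasl2 had 4.75, 1.83, 8.80 and 4.44 CPM in praliciguat and 4.41, 6.06, 4.67 and 1.995 CPM in placebo libraries (0.21 ± 0.47 SE, and -0.22 without that library). The stretches of title numbers differed in sign for both, with differences of -0.62 and -0.79 within the lower stretch and 1.31 and 1.02 within the upper stretch. Oas1a had 0.785, 0.505, 1.46 and 0.674 CPM in praliciguat and 0.490, 0.925, 0.995 and 0.327 CPM in placebo libraries, and Oas2 had a log2 fold change of -0.0031 ± 0.42 (SE). Oas3, which did not pass the count filter, had 2, 1, 33 and 7 counts in praliciguat and 1, 6, 11 and 5 counts in placebo libraries.

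Among the other antiviral effectors 2 of 8 tested fold changes were above 0, with a median of -0.02. Ifitm3, a membrane protein that blocks fusion of viruses, was the most abundant member per length, at 163 ± 77.5 TPM in praliciguat and 178 ± 29.4 TPM in placebo libraries (SD, n = 4 each). It had 35.9, 27.5, 68.8 and 39.3 CPM in praliciguat and 51.6, 49.7, 49.2 and 34.8 CPM in placebo libraries, so placebo replicate 4 stood below an otherwise tight placebo group. Bst2, the tether that holds budding virus on the cell, had 5.92, 4.51, 8.92 and 5.25 CPM in praliciguat and 6.86, 6.95, 5.798 and 3.81 CPM in placebo libraries. Rsad2, or viperin, had 10.0, 8.98, 12.2 and 7.56 CPM in praliciguat and 9.93, 12.6, 10.5 and 6.17 CPM in placebo libraries. The log2 fold changes of these 3 genes were -0.11 ± 0.27, 0.07 ± 0.26 and -0.01 ± 0.23 (SE).

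Cmpk2, a mitochondrial nucleotide kinase encoded beside Rsad2 on chromosome 12, had 4.08, 2.95, 5.51 and 2.95 CPM in praliciguat and 5.75, 5.28, 5.39 and 3.05 CPM in placebo libraries. It had the lowest fold change among the members, at -0.32 ± 0.27 (SE; edgeR adjusted p = 0.984), and was below 0 with each single library left out (-0.55 to -0.21). Ifi44 had 0.981, 0.739, 1.84 and 1.31 CPM in praliciguat and 1.51, 2.53, 1.201 and 0.762 CPM in placebo libraries (log2 fold change -0.30 ± 0.42 SE). Xaf1, which binds the apoptosis inhibitor XIAP, and Ifi35 were at 0.00 ± 0.22 and -0.01 ± 0.23 (SE). Mx1 and Mx2, dynamin-like GTPases that trap viruses, are annotated by RefSeq as transcribed pseudogenes in the reference strain. Mx1 had 3, 5, 23 and 5 counts in praliciguat and 1, 5, 3 and 1 counts in placebo libraries, too few for the test. Mx2 had a log2 fold change of -0.03 ± 0.37 (SE), with praliciguat replicate 3 highest at 1.69 CPM.

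Of the modifiers, Isg15, the ubiquitin-like protein joined to targets after interferon, had 1.26, 0.933, 1.72 and 1.10 CPM in praliciguat and 1.29, 0.993, 1.51 and 0.907 CPM in placebo libraries. Usp18, which removes Isg15, had 1.14, 1.48, 1.89 and 1.03 CPM in praliciguat and 1.34, 1.99, 1.48 and 1.05 CPM in placebo libraries. In both the groups overlapped (log2 fold changes 0.10 ± 0.29 and -0.08 ± 0.30 SE). Parp14, a mono-ADP-ribosyltransferase, had 17.3, 12.2, 22.4 and 13.4 CPM in praliciguat and 12.8, 14.4, 12.6 and 9.29 CPM in placebo libraries. Its log2 fold change of 0.41 ± 0.21 (SE; edgeR adjusted p = 0.932) was 0.22 without praliciguat replicate 3. Parp9 had 14.9, 11.3, 17.8 and 15.2 CPM in praliciguat and 12.3, 13.2, 14.5 and 10.6 CPM in placebo libraries (0.22 ± 0.15 SE, and 0.12 without that library), and its partner ubiquitin ligase Dtx3l had a log2 fold change of 0.09 ± 0.16. Parp9 and Dtx3l overlap by 558 bases at their starts, and reads there cannot be told apart if strand was not used in counting.

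Per length, 33 of the 39 genes averaged at least 1 TPM over the 8 libraries. After Ifitm3 came Irgm1, at 20.2 ± 1.99 TPM in praliciguat and 17.8 ± 1.36 TPM in placebo libraries, and Bst2, at 18.6 ± 6.83 TPM in praliciguat and 17.9 ± 4.18 TPM in placebo libraries (SD, n = 4 each). Ifi35, Irf1, Igtp and Iigp1 followed, with praliciguat means of 13.5, 11.8, 11.7 and 12.5 TPM and placebo means of 13.8, 11.6, 9.82 and 6.61 TPM. From Irgm1 to Iigp1 the spread of neighbours overlapped. Isg15, often used as the marker of an interferon response, was at 3.85 ± 1.23 TPM in praliciguat and 3.69 ± 0.970 TPM in placebo libraries. Oas3 and Mx1 were lowest, under 1 TPM in both groups.

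The signals upstream were measured through a list of 94 other pathway genes, of which 92 had a row; Cgas and Sting1 were present under their older symbols Mb21d1 and Tmem173. None of the 10 interferon ligands on it passed the count filter. Ifng, type II interferon itself, had 2 counts in praliciguat replicate 2 and 0 in the other 7 libraries, and the other 9 ligands had 0 counts in every library. A count of 0 allows up to 0.0875 to 0.134 CPM, from 3 counts, depending on the library and for counting error only. Of the 6 receptor chains listed, 5 were tested, and Ifnlr1, the chain specific to type III interferons, had 0, 4, 4 and 3 counts in praliciguat and 1, 7, 0 and 4 counts in placebo libraries. Ifnar1, a chain of the type I receptor, had 15.2, 18.9, 27.1 and 22.8 CPM in praliciguat and 20.3, 21.1, 22.2 and 18.9 CPM in placebo libraries. Ifngr1, the ligand-binding chain of the type II receptor, had 49.9, 40.1, 74.8 and 56.4 CPM in praliciguat and 56.8, 59.5, 65.6 and 51.4 CPM in placebo libraries. For both, praliciguat spanned a wider range than placebo around a similar centre (log2 fold changes 0.03 ± 0.16 and -0.08 ± 0.18 SE). Ifnar2, the other chain of the type I receptor, had 10.9, 9.83, 22.1 and 15.0 CPM in praliciguat and 9.84, 10.7, 17.1 and 8.27 CPM in placebo libraries. Il10rb, a chain shared with type III interferon receptors, had 10.4, 9.48, 23.6 and 11.3 CPM in praliciguat and 13.007, 10.6, 11.6 and 8.31 CPM in placebo libraries. Both were highest in praliciguat replicate 3. Their log2 fold changes of 0.34 ± 0.30 each (SE) were 0.06 for Ifnar2 and -0.07 for Il10rb without that library.

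Among the 9 signalling genes the lowest p belonged to Pias1 and Ptpn6. Pias1, an inhibitor in this signalling, had 25.6, 23.8, 24.4 and 26.8 CPM in praliciguat and 28.1, 26.5, 28.0 and 29.8 CPM in placebo libraries (log2 fold change -0.16 ± 0.08 SE). Ptpn6, a phosphatase of blood cells, had 1.14, 0.855, 10.5 and 1.88 CPM in praliciguat and 1.604, 1.27, 2.61 and 1.09 CPM in placebo libraries. Praliciguat replicate 3 alone was high, and the log2 fold change of 1.14 ± 0.79 (SE) was -0.34 without it. Among 16 tested nucleic acid sensing genes, 12 had a fold change above 0, and the lowest p belonged to Myd88 and Irf3. Myd88, an adaptor of Toll-like receptors, had 5.65, 5.79, 9.24 and 6.18 CPM in praliciguat and 5.03, 5.21, 6.79 and 4.79 CPM in placebo libraries. Its log2 fold change of 0.30 ± 0.20 (SE) was 0.11 without praliciguat replicate 3. Irf3, a factor that switches on type I interferon genes, had 16.6, 18.9, 20.9 and 20.7 CPM in praliciguat and 23.7, 19.9, 22.7 and 19.5 CPM in placebo libraries (-0.16 ± 0.11 SE). Over these lists 0 genes were called and 0 were at an unadjusted p under 0.05, against 0.00% and 5.73% of all genes tested.

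Of 43 tested further interferon-stimulated genes, 32 had a fold change above 0 (median 0.16), edgeR called 0, and 1 was higher and 2 were lower at an unadjusted p under 0.05. That was 6.98% of the list, close to the 5.73% of all genes tested (1.95% higher and 3.78% lower). Gbp10, a guanylate-binding protein, had 4.39, 5.13, 1.95 and 0.816 CPM in praliciguat libraries, against 12.5, 10.7, 16.5 and 12.8 CPM in placebo libraries. Every praliciguat library lay below every placebo library, as happened in 2.54% of all genes tested. The log2 fold change was -2.10 ± 0.48 (SE; edgeR adjusted p = 0.314), and DESeq2 gave an adjusted p of 0.00109. Without praliciguat replicates 3 and 4 edgeR's adjusted p was 0.0148, and under the alternatives other than these 2 the adjusted p was 0.105 to 0.737. The difference was -1.27 within the lower stretch and -3.45 within the upper stretch. Gbp10 has close relatives such as Gbp6 (log2 fold change -0.30 ± 0.30 SE) with which reads may be shared, so its count is uncertain.

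Helz2, a nuclear co-activator with helicase domains, had 20.7, 20.6, 15.7 and 14.3 CPM in praliciguat libraries, against 23.4, 26.8, 21.7 and 23.1 CPM in placebo libraries, also without overlap (log2 fold change -0.41 ± 0.14 SE; edgeR adjusted p = 0.601). Cd274, the immune checkpoint ligand PD-L1, had 14.1, 5.25, 4.72 and 3.55 CPM in praliciguat libraries, against 2.41, 3.802, 4.15 and 2.79 CPM in placebo libraries. Like 8 of the 9 GTPases it was highest in praliciguat replicate 1 (log2 fold change 1.06 ± 0.43 SE, and 0.45 without that library; edgeR adjusted p = 0.788). Gbp4, named here after its values were seen, had 42.1 CPM in praliciguat replicate 1, 7.28 to 12.9 CPM in the other praliciguat libraries and 4.93 to 10.4 CPM in placebo libraries.

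Levels of the macrophage and monocyte markers and of the fibroblast markers are given beside the members because they moved with part of them. The median of log2 CPM from each gene's mean was taken over 13 tested macrophage and monocyte markers and over 6 fibroblast markers. The macrophage and monocyte median was -0.45, -1.04, 1.93 and 0.13 in praliciguat and -0.24, -0.66, 0.66 and -0.44 in placebo replicates 1 to 4. The fibroblast median was -0.44, -1.03, 1.54 and -0.0013 in praliciguat and -0.11, -0.13, 0.58 and -0.35 in placebo replicates 1 to 4. Both marker medians and the median of the 28 members other than GTPases were highest in praliciguat replicate 3. Of the 28 members 23 were highest there, as were 12 of the 13 macrophage and monocyte markers and 6 of 6 fibroblast markers. The part of the markers in the members' levels was not tested. In praliciguat replicate 1 and in placebo replicate 2 both marker medians lay below 0. The median of the members other than GTPases stood at 0.01 in praliciguat replicate 1 and 0.20 in placebo replicate 2. Of the T and natural killer cell markers 0 of 10 with a row passed the count filter, and 5 of the 10 had 0 counts in at least 1 library. Their summed level was highest in praliciguat replicate 3, at 7.38 CPM, with 8 of the 10 highest there. It was 0.739 to 1.35 CPM in the other praliciguat libraries and 0.834 to 4.80 CPM in placebo libraries. Cd4 gave 3.85 CPM of the sum in praliciguat replicate 3. Summed B cell, dendritic cell and neutrophil markers were also each highest in that library, at 2.39, 11.4 and 11.8 CPM. In placebo libraries they were at most 0.823, 6.90 and 6.45 CPM. Taken singly, 4 of 5 B cell, 6 of 7 dendritic cell and 2 of 5 neutrophil markers were highest in that library. Itgax gave 8.51 CPM of the dendritic cell sum there. Of the neutrophil markers, Ly6g had 0 counts and Retnlg 2 counts there, and S100a8 was highest in praliciguat replicate 4. Summed Schwann cell markers were at 38.3 to 127 CPM in praliciguat and 79.6 to 215 CPM in placebo libraries, with 4 of 4 fold changes below 0 (median -0.67; edgeR called 0). Summed endothelial markers were at 341 to 526 CPM in praliciguat and 481 to 618 CPM in placebo libraries. Here 7 of 7 fold changes were below 0 (median -0.32), and edgeR called 0. Of the 7, 3 were lower at an edgeR unadjusted p under 0.05, and 1, Tie1, was lower without overlap of the groups. Over all genes tested these shares were 3.78% and 2.54%. No marker list had a gene at 0 in every library, and the part of these cells in the members' values was not tested.

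**Figure D5:**
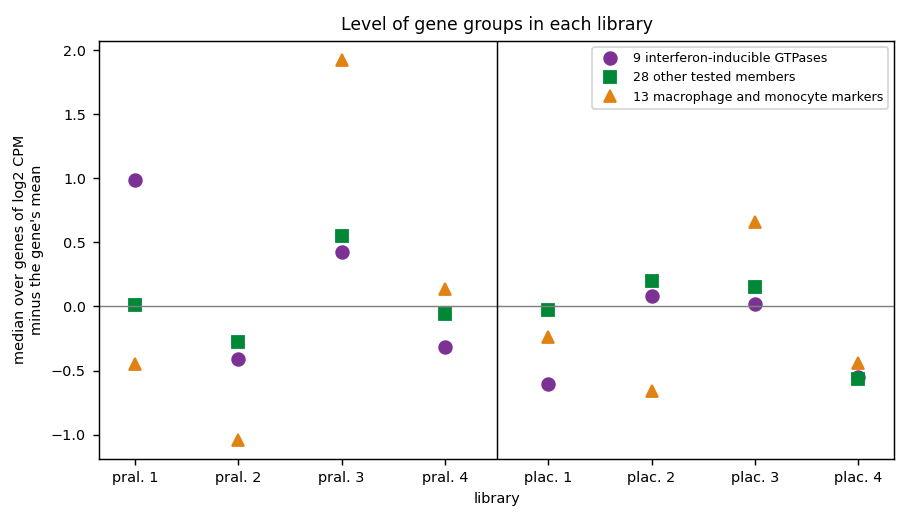
Median over genes of log2 CPM minus each gene's mean over the 8 libraries, for 9 GTPases (circles), 28 other tested members (squares) and 13 macrophage and monocyte markers (triangles), in praliciguat and placebo libraries parted by the black line. The markers peak at 1.93 in praliciguat replicate 3, while the GTPases peak at 0.99 in praliciguat replicate 1, where the markers are at -0.45.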

How the data were processed

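RNA was sequenced from 8 libraries of ischemic mouse muscle made with a stranded mRNA kit, per the labels' protocols. Trimmomatic, STAR 2.5.3a and RSEM 1.2.28 on mm10 are listed in the submitters' processing notes; the strand setting was not given in these sources. The authors deposited expected counts, which are RSEM's estimated reads per gene. They were rounded here; 0.765% to 0.930% per library, and 0 of the members' 312 values, were not whole (tolerance 0.001). The deposited TPM, scaled by gene length per the file headers, served for levels and alternatives. Groups came from the labels, and replicate numbers follow accession order, so they pair nothing.

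The rounded counts were tested with edgeR 4.0.16 under R 4.3.3, using filterByExpr, TMM scaling and the robust quasi-likelihood F test on the group alone, with Benjamini-Hochberg adjustment over 13569 genes at 0.05. An SE is the size of the log2 fold change divided by the square root of F. CPM are relative to TMM-scaled library sizes. Log2 CPM used a prior count of 2, except in the heat map, which used none. The code was tested on simulated data. Alternatives were DESeq2 1.42.0, limma 3.58.1, other filters and scalings, the stretch of title numbers as a block, and libraries left out; leaving out praliciguat replicates 1 and 3 together was added after seeing the data. The members and lists were chosen with earlier results of these data known, so no list was tested and no p was adjusted over a list. Values in every library are given by a rule for 21 members and the 2 of lowest p in each role, and for Ifnar1, Ifngr1 and, in each other list, up to 4 genes at an unadjusted p under 0.05 or else the 2 of lowest p. One gene that the rule names is not reported here. Promoters and coordinates come from RefSeq (GRCm38.p6, which mm10 represents). For 24 of 35 member windows the 30 bases after the start were found in a GENCODE transcript read along the gene, and for 0 read against it. In RefSeq 13 of the 40 genes overlap another gene, and their counts are uncertain to that extent.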

Additional observations from a re-analysis of the deposited data

Results flagged for a closer look

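Single libraries far from the other 3 of their group, by Dixon's gap test at the 95% level, were found in 8 of 86 groups of 4 examined (43 genes in both groups). Chance gives about 5% of groups of independent values, but these genes share the same libraries. Gbp10, Helz2 and Cd274 were among them because of their low p. The rate over all genes was not counted, so no excess is read from these flags. Praliciguat replicate 3 was the lone high library for Irf7 (10.3 CPM), Ifit1 (4.58 CPM), Ifit3 (6.21 CPM) and Mx2 (1.69 CPM). Praliciguat replicate 1 was the lone high library for Tgtp1 (5.73 CPM) and Cd274 (14.1 CPM). Placebo replicate 4 was the lone low library for Ifit3 (1.02 CPM) and Ifitm3 (34.8 CPM).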

How the results depend on the processing

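No member passed the adjusted threshold under any of the alternatives run, and 10 members (Irf7, Nlrc5, Cmpk2, Parp9, Parp14, Gbp2, Irgm1, Iigp1, Tgtp1 and Ifi47) had the same sign under all of them. Of 662 member fold changes under alternatives, 87 had the other sign, in 27 members; the causes were not tested. Depth limited Mx1 and Oas3, whose counts were too low for the test. No paired analysis was possible because the replicate numbers follow accession order and the labels pair no libraries.

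Over all genes, DESeq2 called 13 higher and 113 lower, and leaving out praliciguat replicates 3 and 4 left 6 higher and 79 lower. Genes called lower were 2 by limma-voom, 3 with the stretch of title numbers as a block, 2 without praliciguat replicates 1 and 3, and 11 at an adjusted p under 0.1. With 1 library left out they were 0 to 5, the 5 without placebo replicate 3, and those called higher were 0. Members at an unadjusted p under 0.05 and higher were 2 with no count filter, 4 by DESeq2, 0 on log2(TPM + 1), 0 on log2(TPM + 0.1), 2 without praliciguat replicates 3 and 4, 0 without praliciguat replicates 1 and 3, and 0 to 5 with 1 library left out, the 5 without praliciguat replicate 2. Those lower were 1 without praliciguat replicates 3 and 4, 2 without praliciguat replicates 1 and 3, and 0 to 1 with 1 library left out, the 1 without praliciguat replicate 3. Shares over all genes at that threshold are given only for edgeR with all libraries (1.95% higher and 3.78% lower) and DESeq2 (1.95% and 3.23%). The counts under the other settings therefore have no background beside them, and no result is read from them. The median log2 fold change of the members was 0.12 to 0.23 under other tests, filters and scalings, -0.02 to 0.33 with 1 library left out, -0.04 without praliciguat replicates 3 and 4 and -0.15 without praliciguat replicates 1 and 3.

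Log2 fold changes of the other sign without praliciguat replicates 3 and 4 were Ddx58 -0.12, Zbp1 -0.013, Irf1 -0.025, Irf9 -0.14, Ifit1 -0.13, Ifit3 -0.20, Oas1a -0.10, Oasl1 -0.61, Oasl2 -0.39, Bst2 -0.17, Xaf1 -0.14, Isg15 -0.10 and Dtx3l -0.091. Without praliciguat replicates 1 and 3 they were Ddx58 -0.12, Ifih1 -0.024, Irf1 -0.32, Irf9 -0.047, Stat2 -0.055, Ifit1 -0.13, Ifit2 -0.25, Ifit3 -0.22, Oas1a -0.21, Oasl2 -0.44, Bst2 -0.26, Xaf1 -0.26, Isg15 -0.20, Gbp3 -0.32, Gbp7 -0.20, Igtp -0.46 and Irgm2 -0.15. On log2(TPM + 1) they were Irf1 -0.018, Irf9 -0.0030 and Xaf1 -0.029, and on log2(TPM + 0.1) Irf1 -0.022, Irf9 -0.0040 and Xaf1 -0.032. Other settings gave Oas2 0.0013 with DESeq2 size factors, Oas2 0.00046 with no count filter, Oas2 0.00014 by DESeq2, Rsad2 0.020 and Ifi35 0.0066 by limma-voom and Rsad2 0.0022 with the block. With 1 library left out, the lowest and highest log2 fold changes of the members whose sign turned were Ddx58 -0.054 to 0.28, Irf1 -0.081 to 0.18, Irf9 -0.056 to 0.12, Ifit1 -0.089 to 0.48, Ifit2 -0.045 to 0.35, Ifit3 -0.15 to 0.56, Oas1a -0.070 to 0.55, Oas2 -0.52 to 0.22, Oasl2 -0.22 to 0.49, Mx2 -0.42 to 0.13, Rsad2 -0.18 to 0.13, Bst2 -0.16 to 0.20, Ifitm3 -0.44 to 0.052, Xaf1 -0.18 to 0.10, Ifi44 -0.57 to 0.082, Ifi35 -0.19 to 0.11, Isg15 -0.10 to 0.24, Usp18 -0.27 to 0.11, Dtx3l -0.015 to 0.21, Gbp3 -0.043 to 0.39 and Igtp -0.079 to 0.51.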
